A study of Mus musculus with 135 samples.

Results

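A set of 10 genes of the transforming growth factor-β (TGF-β) and bone morphogenetic protein (BMP) pathway were followed in single haematopoietic stem cells (HSCs) from young and old mice. They are the ligand *Tgfb1*, the receptors *Tgfbr1*, *Tgfbr2*, *Tgfbr3*, *Eng* and *Bmpr2*, the signal carriers *Smad2*, *Smad3* and *Smad4*, and the inhibitor *Smad7*. All 10 were listed by name, were present among the 15181 gene names of the RefSeq read count table and had at least 1 read in the cells used. The HSCs were sorted from bone marrow as live lineage-negative (7AAD- Lin-) cells positive for Sca-1, c-Kit and CD150 and negative for CD48, from C57BL/6 mice that carry the *Vwf-EGFP* reporter, a bacterial artificial chromosome transgene present in both age groups. Young mice were 2-3 months and old mice 20-25 months of age. Of 61 young and 74 old cells deposited, 52 young and 62 old cells met the limits that the study set on mapped reads, mitochondrial reads and detected genes, and these were used unless stated otherwise.

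Each age was represented by 1 mouse, so cells are not replicates of an age and no test between ages was possible. Age, mouse, experiment and the sex-linked expression given below cannot be told apart. Counted reads per cell ranged from 273236 to 5688706 in young and from 276316 to 4086659 in old cells, and the median number of expressed genes was 4116 and 3902. Here a gene was called expressed in a cell when log2(CPM + 1) exceeded 2, where CPM is the count scaled to a fixed total of reads per cell. At least 1 of 4 Y-linked genes was expressed in 58 old and 2 young cells, and *Xist*, which is transcribed from the inactive X chromosome, in 50 young and 8 old cells. Whether the mice differed in sex or RNA passed between cells was not tested. Of the markers of the sort, *Kit* was expressed in 49 young and 61 old cells and *Slamf1* (CD150) in 9 and 15, whereas *Cd48* was expressed in 1 young and no old cell.

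TGF-β is secreted in a latent form and, once released, assembles the type II receptor TGFBR2 with the type I receptor TGFBR1, which phosphorylates SMAD2 and SMAD3. These join SMAD4 and enter the nucleus. BMPs act through BMPR2 and type I receptors such as BMPR1A on SMAD1, SMAD5 and SMAD9. TGFBR3 (betaglycan) and ENG (endoglin, CD105) are co-receptors that present ligand, and SMAD7 blocks the type I receptors and is itself induced by the pathway. TGF-β is known as a signal that holds HSCs in quiescence.

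The mean level of 7 of the 10 genes was higher in old than in young HSCs, with a median difference of 0.515 on the log2(CPM + 1) scale, against a median of −0.02 over all 15014 genes with a count. The former was 0.21 with all deposited cells and 0.91 by the ratio of summed reads. Of all genes, 46.2% had a higher mean in old cells, and 45% of those found in at least 10% of cells. *Eng* and *Tgfbr3* were higher in old cells by at least 1 log2 unit, as were 3.91% of all genes and 6.24% of the 9374 genes found in at least 10% of cells, a class that holds 9 of the 10 members. No member was lower by that much, as were 4.49% and 6.98%. *Tgfbr2* and *Smad7* came next, with differences of 0.93 and 0.87. *Tgfbr1*, *Bmpr2* and *Smad4* had lower means in old cells, by amounts that changed sign between ways of processing the counts. These values describe 2 sets of cells from 2 mice, and every gene ranged from 0 to above the expression limit in cells of each age.

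**Figure D1:**
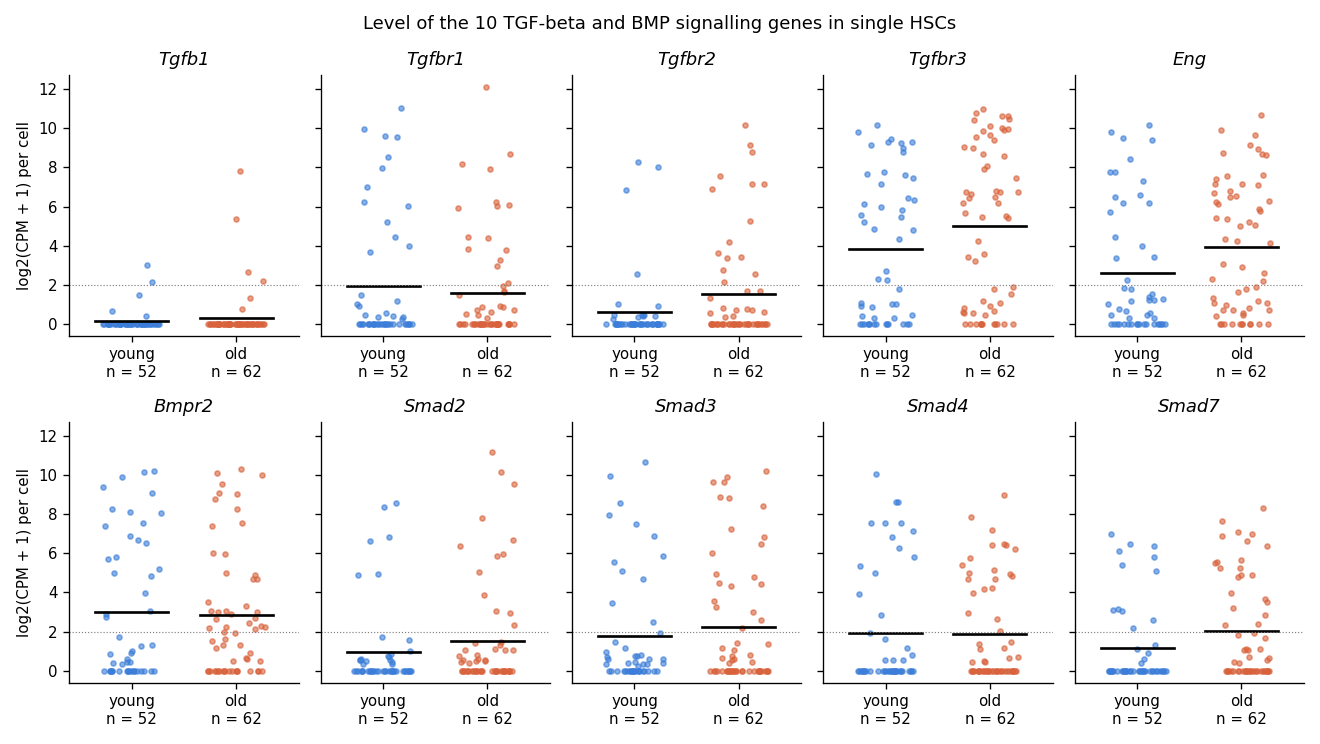
Level of each of the 10 genes in every HSC, as log2(CPM + 1), for 52 young and 62 old cells; each point is a cell, the black line is the mean over cells and the dotted line is the expression limit of 2. For every gene many cells lie at 0, the young and old cells overlap throughout, and the means of *Eng* and *Tgfbr3* are 1.32 and 1.17 higher in old cells.

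*Eng* lies on chromosome 2 (chr2:32646595-32682669, plus strand, GRCm38/mm10). In young HSCs its level had a lowest value of 0, a median of 1.10 and a highest value of 10.14, and in old HSCs 0, 3.61 and 10.69. The mean log2 level was 2.59 ± 3.29 (SD over 52 cells) in young and 3.91 ± 3.32 (SD over 62 cells) in old cells, a difference of 1.32. The 2 sets of cells overlapped over nearly their whole range, and what differed was how often the gene was expressed. Expression was found in 18 young cells (34.6% of 52, 95% exact Clopper-Pearson interval 22-49.1%) and 36 old cells (58.1% of 62, interval 44.8-70.5%). Among expressing cells the median level was 6.53 in young and 6.39 in old. *Eng* was the only one of the 10 genes whose share of expressing cells was at least 20 percentage points higher in old HSCs, a size reached by 1.59% of all genes and 2.55% of those found in at least 10% of cells, and none was lower by that much (1.79% and 2.86%). That size was not kept when every cell was thinned to 250000 reads, where *Eng* was expressed in 22 young and 36 old cells, or when all deposited cells were used, where the cells with *Eng* were 24 of 61 (young) and 43 of 74 (old). It was also not kept without the 2 young cells that expressed a Y-linked gene and the 8 old cells that expressed *Xist*, though the difference in mean level was then 1.18. The difference in mean level was 0.86 in all deposited cells. The ratio of summed reads (13720 young and 19364 old) gave 0.71 on the log2 scale and the ratio of mean CPM gave 0.42. The exons of *Eng* share 61 bases with *Fpgs* on the other strand, and the counting was not stated to use strand, so reads there cannot be assigned to either gene with certainty.

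ENG is also abundant on endothelial cells. Of the 7 endothelial and stromal markers listed, 5 were in the table. *Kdr* was expressed in 0 young and 2 old cells, *Col1a1* and *Cxcl12* each in 1 young and no old cell, and *Emcn*, which HSCs also express, in 20 young and 7 old cells. *Lepr* had counted reads in every cell, with means of 5.58 in young and 5.67 in old, above the mean of each of the 10 genes. Whether its exons overlap those of another gene was not examined. The summed log2 level of these markers ranged from 4.15 to 10.28 in young and from 4.22 to 10.16 in old cells, and *Cdh5* was not among the names in the table.

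*Tgfbr3* (chr5:107106567-107289629, minus strand) differed in the other way, by level more than by frequency. Its lowest, median and highest levels were 0, 2.49 and 10.19 in young HSCs and 0, 5.60 and 10.96 in old HSCs, with means of 3.81 ± 3.67 and 4.98 ± 4.02 (SD over 52 and 62 cells). It was the most often expressed of the 10 genes at both ages, in 28 young cells (53.8%, interval 39.5-67.8%) and 38 old cells (61.3%, 48.1-73.4%). In expressing cells the median was 6.79 in young and 8.0 in old, and no expressing old cell was below 3.21. Summed reads were 19426 in young and 36404 in old cells, and the cell with most reads held 21.6% and 11.6% of them. Its difference of 1.17 stayed between 1.05 and 1.47 under all alternatives tried. In annotation its exons share 297 bases with the unnamed transcript Gm43422 on the same strand, which is not in the table.

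The receptor pair that binds TGF-β itself was rare. *Tgfbr2* (chr9:116087695-116175363, minus strand), the type II receptor, had a median of 0 at both ages and a highest level of 8.29 in young and 10.17 in old HSCs. It was expressed in 4 young cells (7.69%, interval 2.14-18.5%) and 15 old cells (24.2%, 14.2-36.7%), with means of 0.58 and 1.51. The 4 young cells had a median level of 7.44 and the 15 old cells 5.27, so that expression was more frequent in old cells and lower in the cells that had it. *Tgfbr1* (chr4:47353222-47414926, plus strand), the type I receptor, was expressed in 13 young cells (25%, interval 14-38.9%) and 15 old cells (24.2%, 14.2-36.7%), with medians among them of 7.00 and 5.93. Its summed reads, 17331 in young and 20578 in old cells, rested largely on a single old cell with 18278 reads, 88.8% of the old total. The log2 ratio of summed reads was 0.46 with that cell and −2.66 without it, while the difference in mean log2 level was −0.33 and −0.51. *Tgfbr1* and *Tgfbr2* were expressed together in 1 young cell and 5 old cells (8.06%, interval 2.67-17.8%). The product of their separate shares gives 1 young and 3.63 old cells.

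*Bmpr2* (chr1:59764279-59878081, plus strand), the type II receptor for BMPs, had similar means, 3.01 ± 3.55 in young and 2.84 ± 3.18 in old cells (SD over 52 and 62 cells). It was expressed in 22 young cells (42.3%, interval 28.7-56.8%) and 31 old cells (50%, 37-63%). In the expressing cells, however, the median was 6.79 in young and 4.70 in old. The sign of its difference, −0.17, was the opposite in 4 of 8 alternatives. Its usual partner *Bmpr1a* was not one of the 10 genes and is described with the other receptors.

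*Tgfb1* (chr7:25687002-25705077, plus strand), the ligand, was close to absent from these HSCs. Reads were found in 5 young and 6 old cells, 36 reads in all young and 619 in all old cells. It was expressed in 2 young cells (3.85%, interval 0.469-13.2%) and 4 old cells (6.45%, 1.79-15.7%). A single old cell held 76.1% of the old reads. Megakaryocytes and platelets are a known store of TGF-β1, and of the 7 megakaryocyte and platelet markers listed 4 had higher and 3 lower means in old cells. *Selp* was expressed in 5 young and 42 old cells and *Pf4* in 5 and 11, with differences of 4.47 and 0.71. *Gp9* was expressed in 14 and 24 and *Vwf* in 30 and 37, with differences of 0.80 and 0.85. *Ppbp* was expressed in 2 and 2, *Gp1bb* in 1 and 2 and *Itga2b* in 13 and 17. The differences of these last 3 were −0.15, −0.03 and −0.05. Across cells of an age, *Tgfb1* and *Vwf* levels had a Pearson r of −0.07 in young and −0.05 in old.

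The SMADs had medians at or near 0 at both ages. *Smad2*, on chromosome 18, was expressed in 6 young cells (11.5%, interval 4.35-23.4%) and 13 old cells (21%, 11.7-33.2%), with means of 0.98 and 1.52. *Smad3* (chr9:63646766-63757994, minus strand) was expressed in 12 young cells (23.1%, 12.5-36.8%) and 21 old cells (33.9%, 22.3-47%), with means of 1.76 and 2.24. Either of these receptor-regulated SMADs was expressed in 16 young and 29 old cells, and both together in 2 and 5. A single old cell held 42.5% of the old *Smad2* reads, and without it the log2 ratio of summed *Smad2* reads was 1.33 in place of 2.09.

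*Smad4*, the common partner SMAD, also on chromosome 18, had almost the same mean at both ages, 1.93 in young and 1.90 in old cells. It was expressed in 14 young cells (26.9%, interval 15.6-41%) and 21 old cells (33.9%, 22.3-47%), and its median in expressing cells was 7.00 in young and 4.97 in old. Summed reads were 8196 in young and 2828 in old cells, a log2 ratio of −1.32. The young cell with most *Smad4* reads held 38.8% of them, and without it the ratio was −0.65. *Smad4* with *Smad2* or *Smad3* was found in 6 young cells (11.5%, 4.35-23.4%) and 10 old cells (16.1%, 8.02-27.7%).

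*Smad7*, the inhibitory SMAD, again on chromosome 18, was expressed in 12 young cells (23.1%, interval 12.5-36.8%) and 22 old cells (35.5%, 23.7-48.7%). Its lowest, median and highest levels were 0, 0 and 7.00 in young cells and 0, 0.60 and 8.32 in old cells, with means of 1.17 and 2.03. The median in expressing cells was 5.25 at both ages, so *Smad7*, like *Eng*, differed in how often it was found. Its difference of 0.87 ranged from 0.72 to 1.52 over the alternatives.

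**Figure D2:**
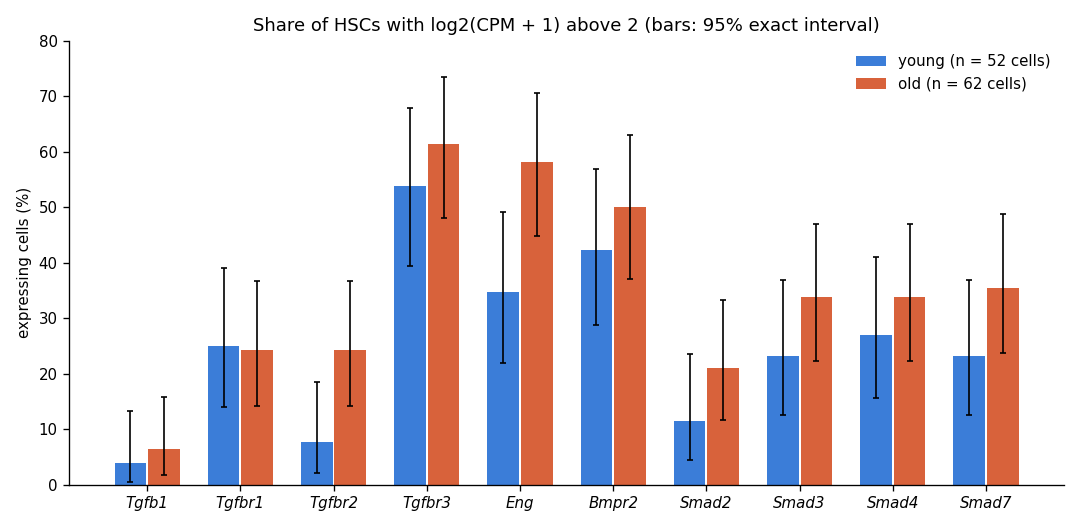
Share of HSCs that expressed each of the 10 genes, in percent, for 52 young (blue) and 62 old (orange) cells; error bars are 95% exact Clopper-Pearson intervals over cells. The young and old intervals overlap for all 10 genes, and the bars lie furthest apart for *Eng* (34.6% and 58.1%) and *Tgfbr2* (7.69% and 24.2%).

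For 9 of the 10 genes the share of expressing cells was higher in old HSCs, by 2.61 points for *Tgfb1* to 23.4 points for *Eng*, and *Tgfbr1* was the exception at −0.81 points. Of all genes with a count 41.7% had a higher share in old cells, and 42.5% of those found in at least 10% of cells. The direction depended on the limit for some members. With at least 1 read counted as expression the share for *Smad3* was 57.7% (young) and 51.6% (old), and with a limit of 4 it was 34.6% and 25.8% for *Bmpr2* and 21.2% and 16.1% for *Tgfbr1*. The exact intervals of young and old cells overlapped for each gene, and they cover the sampling of cells within a mouse only, not the difference between mice. In the cells that expressed a gene, the old median was higher for *Tgfb1* and *Tgfbr3*, within 0.14 log2 units of the young median for *Eng* and *Smad7*, and lower for the other 6, by as much as 2.17 for *Tgfbr2*, 2.09 for *Bmpr2* and 2.03 for *Smad4*. With *Eng*, 7 of the 10 had a lower median in old cells by any amount, as did 49.5% of the 12291 genes expressed at both ages and 49.2% of those among them found in at least 10% of cells.

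**Figure D3:**
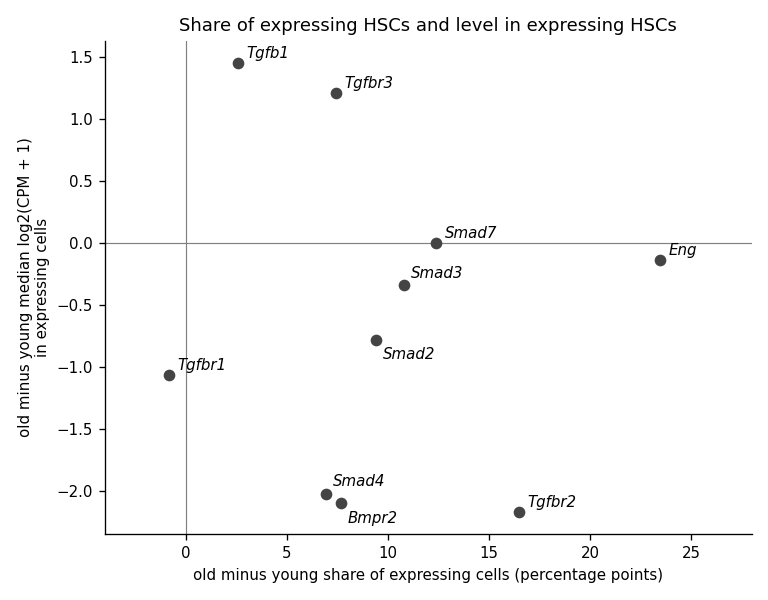
Old minus young difference in the share of expressing HSCs, in percentage points (x axis), against the old minus young difference in the median log2(CPM + 1) of expressing HSCs (y axis); each point is a gene. *Eng* lies at 23.4 points with −0.14 log2 units, *Tgfbr3* at 7.44 points with 1.21, and *Tgfbr2* at 16.5 points with −2.17.

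Per length of transcript, the order of the genes was led by the co-receptors. In young HSCs mean CPM per kilobase of exon was 27 for *Eng*, 24.1 for *Tgfbr3*, 18.6 for *Tgfbr1*, 16.5 for *Smad4*, 14.1 for *Smad3*, 9.36 for *Bmpr2*, 2.39 for *Smad7*, 2.34 for *Smad2*, 1.66 for *Tgfbr2* and 0.116 for *Tgfb1*. In old HSCs it was 54.5 for *Tgfbr3*, 36.2 for *Eng*, 17.7 for *Smad3*, 16.2 for *Tgfbr1*, 9.59 for *Smad2*, 8.33 for *Bmpr2*, 7.37 for *Smad4*, 5.69 for *Tgfbr2*, 5.46 for *Smad7* and 2.05 for *Tgfb1*. The SD over cells was larger than the mean for each gene at each age (44 for *Tgfbr3* in young and 86.8 in old cells), so no neighbours in either order differed by more than their spread. Single cells set parts of the order. Without the cell with the highest CPM of the gene, 6 of the 10 values in young and 4 in old cells were lower by over 1.5 times. In old cells *Tgfbr1* then had 3.73, and would stand 9th in place of 4th if the other genes kept all their cells. *Smad2* had 5.04, *Tgfbr2* 3.45 and *Tgfb1* 0.388, each without its own highest cell. In young cells these values were 11.9 for *Tgfbr1*, 10.6 for *Smad4*, 8.13 for *Smad3*, 1.47 for *Smad2*, 0.934 for *Tgfbr2* and 0.0547 for *Tgfb1*, while *Tgfbr3* and *Eng* stayed the first 2 genes at both ages.

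The number of the 10 genes expressed in the same cell was higher in old HSCs. Its mean is the sum of the 10 shares given above, so this is the same result counted per cell. Young cells expressed a median of 2 (mean 2.52, range 0-6) and old cells a median of 3.5 (mean 3.48, range 1-6). None of the genes was expressed in 4 young cells (7.69%, interval 2.14-18.5%) and in 0 of 62 old cells, which allows a share of up to 4.84%. At least 5 were expressed in 6 young and 16 old cells. The median of expressed genes over the whole table was lower in old than in young cells. Thinning to 250000 reads gave medians of 2.5 (young) and 4 (old) of the 10 genes. What sets the number per cell was not tested. Over cells, the number of the 10 genes expressed had a Pearson r of 0.45 (young) and 0.36 (old) with the number of all genes expressed, a quantity that shares its cells and depth.

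**Figure D4:**
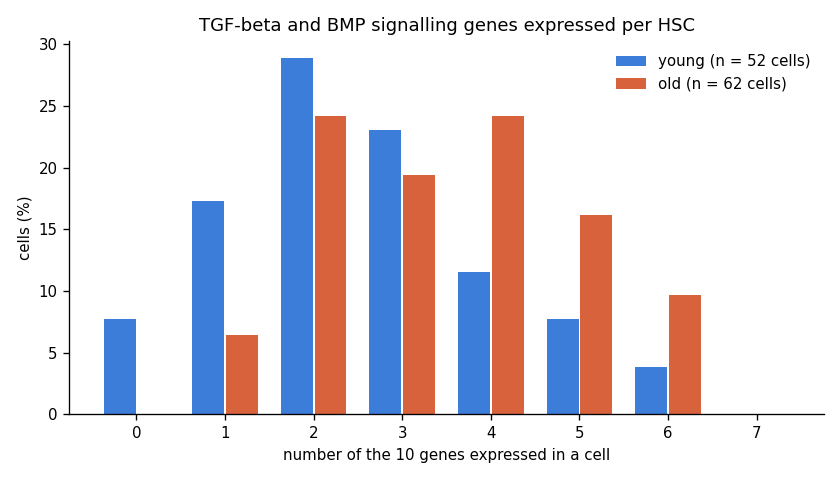
Number of the 10 genes expressed per HSC (x axis) and percent of cells (y axis) for 52 young and 62 old cells. Young cells are centred on a median of 2 and include 4 cells with none, and old cells on a median of 3.5 with no cell at 0.

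Few cells held a complete set of components. At least 1 of the 5 receptors and co-receptors was expressed in 46 young cells (88.5%, interval 76.6-95.6%) and 60 old cells (96.8%, 88.8-99.6%), but no cell expressed all 5, and counts of 0 allow a share of up to 5.77% in young and 4.84% in old. *Tgfbr1*, *Tgfbr2* and *Smad4* came together in 1 young and 3 old cells. *Tgfbr3* and *Eng* were both expressed in 9 young (17.3%, 8.23-30.3%) and 19 old cells (30.6%, 19.6-43.7%), and neither in 15 young (28.8%, 17.1-43.1%) and 7 old cells (11.3%, 4.66-21.9%). The product of their separate shares gives 9.69 young and 22.1 old cells with both, so these joint counts lay near what the single shares give. In these libraries, which have no molecular identifiers, a gene at 0 may have been present below what a cell's cDNA captured, so the shares are of cells in which the gene was read.

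The levels of the 10 genes were nearly unrelated to each other from cell to cell. Over the 45 pairs the median Pearson r was 0.05 in young cells (−0.19 to 0.28) and −0.05 in old cells (−0.23 to 0.25). The highest value in young cells, for *Tgfbr2* and *Smad2*, rested on a single cell with the most reads of both, and was −0.02 without it. The highest in old cells, for *Smad3* and *Smad7*, was the same to 2 decimals without the cell that had most *Smad3* reads, and 11 of the 22 old cells with *Smad7* also expressed *Smad3*. Against 24 target, inhibitor and other SMAD genes, the 240 pairs had a median r of 0.02 in young and 0.00 in old cells, and no pair had a mean of the r values of both ages above 0.3. With the summed level of 16 cell cycle genes, *Tgfbr3* had an r of −0.04 in young and 0.04 in old cells and *Eng* 0.12 and −0.12. In such sparse counts these weak values describe the cells and carry no finding.

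Among 9373 other genes found in at least 10% of cells, the gene most like each member was found by the mean of the Pearson r in young and old cells, for the 6 members expressed in at least 25% of cells. It was *Sfxn2* for *Smad3* (r of 0.60 over 52 young and 0.48 over 62 old cells), *Camkk2* for *Smad4* (0.49 and 0.35), *Esyt2* for *Smad7* (0.40 and 0.44), *Pyurf* for *Bmpr2* (0.55 and 0.21), *Rbpms2* for *Eng* (0.38 and 0.35) and *Nap1l1* for *Tgfbr3* (0.33 and 0.38). The cells share depth and library, and each gene is the highest of 9373 candidates. *Sfxn2*, a mitochondrial carrier of the sideroflexin family, was expressed in 47 young and 52 old cells, among them all 12 young and 20 of the 21 old cells with *Smad3*. All 3 young cells with *Rbpms2*, which encodes an RNA-binding protein, expressed *Eng*, as did 9 of the 12 old cells. *Smad3* level in young cells had an r of 0.52 with the number of genes expressed, and 0.09 in old cells.

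The rest of the pathway was taken from 7 lists of ligands, latency and activation factors, other receptors, other SMADs, inhibitors, signal partners and target genes. Of 93 genes listed 69 were in the table with a count, with a median difference of 0.04. By at least 1 log2 unit, 9 of the 69 were higher in old HSCs and 1 was lower, as were 3.91% and 4.49% of all genes. Of these 9, 6 were among the 13 target genes, whose median difference was 0.87, beside −0.02 over all genes. In the class found in at least 10% of cells, which holds 11 of the 13, 6.24% of genes were higher by that much. The target gene median was the highest of the 7 lists. By the ratio of mean CPM the other receptors had 1.84 and the target genes 1.75. The 1.84 is the value of a single gene, *Acvr2b*, expressed in 1 young and 1 old cell. Among genes found in at least 10% of cells the medians were 1.22 and 1.18, over 2 and 11 genes. Of these 2 receptor genes, *Bmpr1a* reached that class through 17 old cells, with 1 young cell. The target genes *Id3* (1 young and 13 old cells), *Cdkn1a* (2 and 16), *Bhlhe40* (3 and 10) and *Klf11* (4 and 9) also reached it mostly through old cells. The class can thus favour genes that are high in old cells, and its medians add no support to those of the lists. So few receptor genes give no ranking of the 2 lists. Many of the target genes respond to other signals as well.

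*Id2* had the largest difference, 3.43. This inhibitor of basic helix-loop-helix factors is induced by BMP-activated SMADs. It was expressed in 8 young cells (15.4%) and 35 old cells (56.5%), with a mean log2 level of 0.94 in young and 4.37 in old. *Id3* was expressed in 1 young and 13 old cells and *Id1* in 6 and 7, with differences of 1.53 and −0.23. At least 1 of *Id1*, *Id2* and *Id3* was expressed in 12 young cells (23.1%, interval 12.5-36.8%) and 38 old cells (61.3%, 48.1-73.4%), and *Id2* with *Id3* in 0 young and 10 old cells.

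*Tsc22d1*, named for its induction by TGF-β, was expressed in 41 young and 60 old cells, with means of 5.94 and 8.19. *Klf10*, an early TGF-β-response transcription factor, was expressed in 30 young and 46 old cells, with means of 3.48 and 4.89. The other 2 past 1 log2 unit, named after their values were seen, were the cell cycle inhibitor gene *Cdkn1a*, with a difference of 1.21, and the cyclin gene *Ccnd1*, with 1.18. *Cdkn1c*, another cell cycle inhibitor gene, had means of 1.86 and 1.73, and *Runx1* was expressed in 38 young and 45 old cells. The 16 cell cycle genes had a median difference of −1.15 between the same cells, and their part in these values was not tested.

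Of the other receptors, 7 of 13 were in the table. *Bmpr1a*, the type I BMP receptor, was expressed in 1 young cell (1.92%, interval 0.0487-10.3%) and 17 old cells (27.4%, 16.9-40.2%), with 317 and 17636 reads and means of 0.13 and 2.11. *Bmpr1a* with *Bmpr2* was found in 1 young and 10 old cells (16.1%, 8.02-27.7%). *Acvr1*, a further type I receptor, named after its values were seen, was expressed in 5 young and 0 old cells, which allows a share of up to 4.84%. *Acvr2a*, a type II receptor for activins, was expressed in 5 young and 9 old cells, and *Acvrl1*, the usual partner of endoglin in endothelium, in 0 and 1.

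No ligand reached 1 log2 unit. Of the 10 in the table only *Gdf3* reached 10% of cells, being expressed in 49 young and 57 old cells at a median of 4.18 and 3.97 among them. None of the 10 latency and activation genes reached 1 log2 unit either. *Ltbp3* and *Nrros* had differences of −0.50 and −0.30, and *Furin* and *Mmp14* each had 0.32. *Furin*, the protease that cleaves the TGF-β precursor, was expressed in 20 young (38.5%) and 23 old cells (37.1%). The BMP SMADs *Smad1* and *Smad5* had differences of 0.38 and 0.30, and *Smad1* was expressed in 17 young and 27 old cells. *Smad9* was expressed in 15 and 11 cells, at medians of 2.34 and 2.55 among them, close to the limit of 2. It had reads in 43 young and 50 old cells, so these counts depend on the limit. The second inhibitory SMAD, *Smad6*, was expressed in 3 young and 1 old cell.

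Among 13 inhibitors, *Skil*, which encodes the SMAD co-repressor SnoN and is itself induced by TGF-β, was expressed in 32 young and 50 old cells with means of 4.62 and 6.05. *Fstl1*, a secreted BMP antagonist, was the only pathway gene lower by at least 1 log2 unit in old HSCs, with means of 4.49 and 3.42. The ubiquitin ligase gene *Smurf2* was expressed in 13 young and 16 old cells with a difference of −0.44, and the co-repressor gene *Tgif2* in 7 and 5 with −0.52. Among 12 signal partners, *Sp1*, a transcription factor that binds the GC box, had means of 4.38 and 6.16, and *Map3k7*, the TGF-β-activated kinase TAK1, 3.06 and 2.10. *Zfyve16*, an endosomal SMAD anchor, and *Ep300*, a co-activator, had differences of 0.89 and −0.68.

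**Figure D5:**
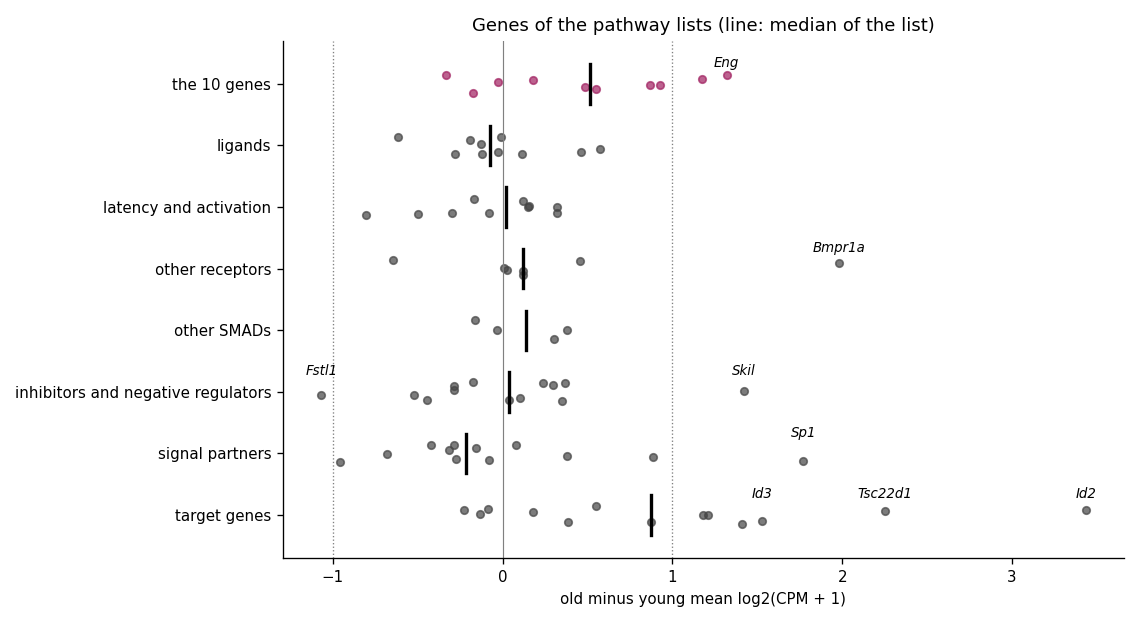
Old minus young difference in mean log2(CPM + 1) for the 10 genes and for 69 genes of 7 pathway lists; each point is a gene, the vertical line is the median of the list and the dotted lines mark 1 log2 unit. The target genes have the highest median (0.87) and *Id2* lies furthest to the right at 3.43, while the ligands, latency genes and other SMADs stay within 1 unit.

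Promoter sequence, 250 bases before to 50 after the transcript start in RefSeq (GRCm38.p6), was at hand for 6 of the 10 genes in 7 entries, 2 of them for *Tgfbr1*. Their GC content ran from 52% to 77% with a median of 63.3%, against 52.7% over 32851 mouse promoters, and they held a median of 23 CpG against 7. The GC box GGGCGG, searched on both strands because *Sp1* was among the genes that differed, was present in 4 of the 7, those of *Bmpr2*, *Smad3*, *Tgfb1* and a *Tgfbr1* entry, and in 35.7% of all promoters. The higher GC content of the 7 windows was not taken into account in that comparison. The SMAD palindrome GTCTAGAC, present in 0.213% of all promoters, was in none of the 7 windows, which says only that these letters are not there. Motifs named for RUNX (16.8% of all promoters), GATA (11.2%), ETS (3.33%) and CREB (20.8%) were also searched and were in none of the 7. The windows of *Eng*, the gene with the largest difference, and of *Tgfb1*, the least expressed, are shown because they differ most in this box, with the box in capitals. *Eng* has no box and *Tgfb1* has 6.
Eng, chr2:32646345-32646644, plus strand: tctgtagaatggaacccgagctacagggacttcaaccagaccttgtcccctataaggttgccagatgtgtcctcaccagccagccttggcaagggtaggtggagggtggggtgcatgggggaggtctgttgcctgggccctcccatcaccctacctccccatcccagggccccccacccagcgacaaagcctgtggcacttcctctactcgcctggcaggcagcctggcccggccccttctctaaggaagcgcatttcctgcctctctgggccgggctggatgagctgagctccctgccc
Tgfb1, chr7:25686752-25687051, plus strand: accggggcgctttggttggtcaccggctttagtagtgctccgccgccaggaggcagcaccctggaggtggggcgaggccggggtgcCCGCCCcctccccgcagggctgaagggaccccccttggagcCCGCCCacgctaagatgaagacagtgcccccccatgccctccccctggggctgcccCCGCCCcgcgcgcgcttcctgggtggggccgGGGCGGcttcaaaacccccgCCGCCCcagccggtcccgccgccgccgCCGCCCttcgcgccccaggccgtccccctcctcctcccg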

How the data were processed

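Single-cell cDNA was made with the C1 system and SMARTer chemistry, tagged with Nextera XT and sequenced as single 51-base reads. The authors aligned reads to mm10 with TopHat2 2.0.10, keeping 1 location per read, and deposited raw counts per RefSeq gene and cell from rpkmforgenes, without molecular identifiers. All columns of the table were matched to a sample by title, and 0 were left over.

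Cells with at least 500000 mapped reads, at most 10% mitochondrial reads and at least 3000 genes at 1 RPKM, limits set by the study, were kept (52 of 61 young, 62 of 74 old). Counts were divided by the cell's counted total to give CPM, and levels are log2(CPM + 1), which understates differences of low genes. Differences are old minus young means over cells, shares carry 95% exact Clopper-Pearson intervals, which like the limits for counts of 0 (3 counts) cover counting error only. With 1 mouse per age no test was run and differences were described by size, 1 log2 unit or 20 percentage points. Per-length values use the summed exon length of the longest transcript of the gene in the GENCODE annotation that is linked to a RefSeq mRNA. Of the gene names, 14287 matched a RefSeq symbol. Doublets were not called. No 2 cells had identical counts. Of the chip positions 46 were used at both ages.

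The members, lists and size rules were chosen with earlier results of these data known. The text names all 10 members, from each pathway list up to 4 genes with the largest difference among those expressed in at least 10% of cells, *Id1*, *Id2*, *Id3*, *Smad1*, *Smad5* and *Smad6*, the gene most like each member, and others as stated. Alternatives were all deposited cells, cells with at least 1000000 reads, a pseudocount of 0.1, ratios of summed reads and of mean CPM, TMMwsp factors (edgeR 4.0.16), poscounts factors (DESeq2 1.42.0), thinning to 250000 reads and leaving out each cell. The tools were R 4.3.3, scipy 1.17.1, numpy 2.4.6 and pandas 2.3.3 under Python 3.11.15. The calculations were tested on simulated data.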

Additional observations from a re-analysis of the deposited data

How the results depend on the processing

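The number of the 10 genes past 1 log2 unit was 2 as reported, 1 with all deposited cells, 4 with a pseudocount of 0.1, 6 (5 higher and 1 lower) by the ratio of summed counts and 6 (5 higher and 1 lower) by the ratio of mean CPM. The number past 20 percentage points was 1 as reported and 0 with all deposited cells, after thinning to 250000 reads, and without the cells that expressed sex-linked genes of the other mouse, an alternative chosen after seeing the data, as were those that leave out the cell with most reads of *Smad4*, *Tgfbr1*, *Tgfb1* or *Smad2*, or the cell with the highest CPM of each gene. Without the old cell with most reads the log2 ratio of summed *Tgfb1* reads was 2.27, against 4.31 with it. Over the 10 genes, the median difference was 0.21 with all deposited cells and 0.91 by summed counts, its lowest and highest values. The target gene median was 1.57 with a pseudocount of 0.1, 2.00 by summed counts and 1.75 by mean CPM. The ligand median was −1.03 and −1.02 by the latter 2. The median of the other receptors was 1.43 by summed counts and 1.84 by mean CPM. It was 1.22 among the 2 of them expressed in at least 10% of cells. Leaving out each cell in turn gave 2 to 3 genes past 1 log2 unit and a median difference of 0.41 to 0.66. The sign of the difference was the opposite in 4 of 8 alternatives for *Bmpr2* and *Smad4* and in 2 of 8 for *Tgfbr1*, and in 0 of 8 for the other 7 genes. The causes were not tested. No paired analysis was possible because cells were captured singly from 1 mouse per age and their numbers pair nothing. Depth and capture limit what a cell at 0 can show, and the precision of each share is set by 52 and 62 cells.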

Other observations

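*Lepr* and *Gdf3* were above 0 in every HSC, whereas each of the 10 members was at 0 in some cells of each age. Exon overlaps with other genes were examined for the 10 members only. Reads counted for *Lepr* and *Gdf3* therefore cannot be assigned to them with certainty. *Lepr*, a receptor gene known from bone marrow stromal cells, lay between 4.15 and 7.06 in young and between 3.51 and 8.54 in old cells, with means of 5.58 ± 0.67 and 5.67 ± 0.85 (SD over 52 and 62 cells). *Gdf3*, a TGF-β family ligand known from embryonic stem cells, ranged from 0.90 to 10.15 in young and from 1.36 to 9.21 in old cells, with SDs of 2.03 and 1.57. By comparison the SD of *Tgfbr3* was 3.67 and 4.02 in the same cells.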
